A study of Mus musculus with 14 samples.

Results

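Laminins are the secreted glycoproteins that lay down the basement membrane, and 9 genes of laminin chains, Lama1, Lama2, Lama3, Lama4, Lama5, Lamb1, Lamb2, Lamb3 and Lamc1, were taken by their symbols from the table of 35275 genes. All 9 were listed. Their messenger RNA was measured as FPKM (sequenced fragments scaled by gene length and by library depth) in 14 samples of 5 mouse ovarian carcinoma lines. Parental KMF cells come from ID8 cells of C57Bl/6 origin that were passaged in mice and carry gains of Myc and the FAK gene Ptk2. FAK KO cells are the single KMF clone KT13, in which CRISPR/Cas9 cutting of Ptk2 disrupted every allele found. The remaining lines were all made from KT13 and so lack endogenous FAK as well. FAK-WT cells carry lentiviral GFP-FAK, and FAK-R454 cells carry GFP-FAK-R454, whose kinase is inactive. β-catenin ΔGSK cells, labelled as KT13 with active beta-catenin, carry a retroviral β-catenin without its GSK3β phosphorylation sites. All cells grew for 5 days as anchorage-independent tumorspheres in PromoCell XF medium, and each line has 3 samples except FAK-R454, which has 2. The labels' growth protocol calls the samples independent, and the study's methods place KMF samples at various passages. For the other lines no source used here says that samples came from separate cultures, so their p-values measure only the spread between these samples.

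Each laminin is a cross-shaped trimer of an α, a β and a γ chain, joined in a coiled coil before secretion. The trimers polymerise beneath epithelia, endothelia, muscle and nerve, and the globular end of the α chain binds integrins and dystroglycan on the cell surface. FAK is a tyrosine kinase recruited to integrins that have bound such a matrix. β-catenin carries Wnt signals to DNA through TCF/LEF factors.

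Upstream sequences are shown for 3 chains. Lamb3 and Lamb1 are the β chains that were higher in KMF and FAK-WT than in FAK KO cells. Lama5 is the abundant α chain that the main fit called in no comparison with FAK KO cells. RefSeq promoter windows (build GRCm38.p6) were found for 5 of the 9 members, namely Lama2, Lama5, Lamb1, Lamb2 and Lamb3, with 6 windows in all since Lamb3 has 2 start sites. Each window held the 250 bases before the RefSeq start. The bases below run 5′ to 3′ along the gene's strand, stop where a GENCODE exon or the gene as placed in the table begins, and carry copies of the GC box (GGGCGG or its reverse complement CCGCCC) in capitals. The Lamb3 stretch lies at chr1:193301744-193301956 on the plus strand, the Lamb1 stretch at chr12:31265043-31265233 on the plus strand, and the Lama5 stretch at chr2:180225860-180226109 on the minus strand.
Lamb3: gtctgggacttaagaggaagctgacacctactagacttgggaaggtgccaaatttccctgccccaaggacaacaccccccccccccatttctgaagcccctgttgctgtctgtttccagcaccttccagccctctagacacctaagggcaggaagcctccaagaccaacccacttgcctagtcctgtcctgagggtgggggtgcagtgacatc
Lamb1: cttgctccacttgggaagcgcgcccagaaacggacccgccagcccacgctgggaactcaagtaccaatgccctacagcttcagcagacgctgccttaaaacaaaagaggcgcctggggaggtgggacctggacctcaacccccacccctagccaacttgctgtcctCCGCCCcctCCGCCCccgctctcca
Lama5: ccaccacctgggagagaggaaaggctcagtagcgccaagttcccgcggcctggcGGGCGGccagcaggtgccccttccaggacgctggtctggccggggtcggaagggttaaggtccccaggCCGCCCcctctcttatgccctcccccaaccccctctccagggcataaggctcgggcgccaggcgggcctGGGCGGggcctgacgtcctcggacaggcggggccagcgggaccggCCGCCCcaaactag

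Over the full 250 bases, the GC box occurred 2 times before Lamb1, with its first base 84 and 75 bases upstream of the start, and 4 times before Lama5. It was found in neither Lamb3 window, nor before Lamb2 or Lama2. Of 32851 mouse windows of this length, 32.7% held at least 1 GC box. The TCF/LEF core CTTTGA (reverse TCAAAG) occurred among the 6 windows only in that of Lama2 and in 13.8% of all windows. The AP-1 site TGANTCA, which is its own reverse complement, was in none of the 6 and in 6.75% of all. The TEAD site GGAATG (reverse CATTCC) occurred 1 time, in the window of the downstream Lamb3 start, and in 12.6% of all. Both strands were searched, and no 2 matches overlapped. The Lama2 and downstream Lamb3 windows, though before a RefSeq start, lie inside the genes as the table places them. These are matches of letters and say nothing of binding.

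Depth ran from 25390558 to 35289859 gene-assigned fragments per library (median 28720224). No 2 libraries were identical. FAK-WT sample 3 differed from FAK-WT samples 1 and 2 by a chi-square per degree of freedom of 42.5 and 30.5, while samples 1 and 2 differed by 3.15, and member results whose call changes, or whose value moves by over 1.5 times, without this library are given both ways where they are described. KMF sample 3 (23.8 and 29.0, against 4.59 between the others) and β-catenin ΔGSK sample 1 (18.1 and 30.4, against 8.75) stood apart to a lesser degree, and leaving out either changed no call of a member against FAK KO cells. FAK KO sample 1 also stood apart (22.2 and 11.4, against 8.17). Leaving it out lost the call of Lamc1 in FAK-WT over FAK KO cells, as given with Lamc1. Ptk2 mRNA averaged 19.0 ± 1.45 FPKM in FAK KO, 15.5 ± 0.401 FPKM in β-catenin ΔGSK, 43.4 ± 1.76 FPKM in FAK-WT and 24.3 ± 0.421 FPKM in KMF cells (SD, n = 3 each), and 62.4 ± 4.42 FPKM in FAK-R454 cells (SD, n = 2), so the edited transcript remained in FAK KO cells and the level does not check that label. Ctnnb1, the β-catenin gene, averaged 214 ± 8.24 FPKM in β-catenin ΔGSK cells, against 145 ± 4.63 FPKM in FAK KO cells (SD, n = 3 each). Of 7 markers of ovarian surface epithelium and mesothelium, 6 were above 1 FPKM, with sums of 1068 to 1250 FPKM in FAK KO and 1569 to 1809 in FAK-WT samples and between 1173 and 1399 in the other lines. Of the 6 tested, 5 were called higher in FAK-WT over FAK KO cells, where 40.8% of all genes were called. In β-catenin ΔGSK over FAK KO cells 3 were higher and 2 lower (58.1% of all genes called). FAK-R454 had 2 higher and 0 lower (19.7%), and KMF 2 higher and 1 lower (51.8%). Similar sums hid changes of single genes. Wt1 averaged 227 FPKM in β-catenin ΔGSK and 97.8 FPKM in FAK KO cells, and Krt8 181 and 317 FPKM. Upk3b averaged 31.6 FPKM in FAK-R454 and 4.03 FPKM in FAK KO cells. The part of these markers in the laminin results was not tested. The sum of the epithelial adhesion genes Cdh1 and Epcam was 0.877 to 1.21 FPKM in KMF and at most 0.696 FPKM in samples of the other lines. Cdh1 alone was raised in KMF, with a mean of 0.760 FPKM against at most 0.0986 FPKM in the other lines. Mean Epcam was lowest in KMF, at 0.280 FPKM, and highest in β-catenin ΔGSK cells, at 0.539 FPKM. Pax8, a Müllerian marker, stayed at or below 0.198 FPKM in each sample. Summed muscle markers were 1.55 to 2.12 FPKM in FAK KO, 0.871 to 1.22 in KMF and 2.61 to 3.31 in FAK-WT samples. They were 2.15 to 2.41 in FAK-R454 and 2.07 to 2.90 in β-catenin ΔGSK samples. The part of these genes in the laminin results was not tested. The T cell marker Cd3e was at 0 in all samples.

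Lamb3, the β3 chain that is known from the anchoring laminin of epidermis, had the widest range in fold between samples of the members tested. Its gene lies at chr1:193301957-193343878 on the plus strand. KMF samples had 5.67, 4.84 and 7.05 FPKM. FAK KO samples had 0.170, 0.122 and 0.113 FPKM, from 13 to 21 fragments each. FAK-WT samples had 0.844, 1.22 and 1.95 FPKM, and FAK-R454 samples had 0.801 and 0.957 FPKM. In β-catenin ΔGSK samples the level was 0.0603, 0.0962 and 0.0498 FPKM, from 6 to 10 fragments each. The KMF, FAK KO and β-catenin ΔGSK samples overlapped with no other line, while the FAK-R454 samples lay inside the range of FAK-WT or just below it.

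Differences were tested with limma on log2(FPKM + 0.1), which understates the change of low genes. A gene was tested if its mean exceeded 1 FPKM in at least 1 of the 2 lines, and was called at an adjusted p (Benjamini-Hochberg) below 0.05 if the higher line also had a mean above 1 FPKM. Lamb3 rose in FAK-WT over FAK KO cells, from 0.135 ± 0.0308 to 1.34 ± 0.560 FPKM (SD, n = 3 each), a log2 difference of 2.55 (SE 0.33, limma adjusted p = 0.000933). It passed the filter through the FAK-WT line, so this p is that of a gene admitted where it was high, and when all genes were tested with no filter the adjusted p by limma was 0.00288. The size depends on the scale: it was 1.01 with a pseudocount of 1 and 3.20 by limma-voom on fragments, and was called under both. Without FAK-WT sample 3, the highest of its line, the difference was 2.25 (limma adjusted p = 0.00237). In KMF cells Lamb3 averaged 5.85 ± 1.12 FPKM (SD, n = 3), and the log2 difference from FAK KO cells was 4.65 (SE 0.19, limma adjusted p = 6.77e-07, and 1.85e-05 with no filter), with 2.58 under a pseudocount of 1 and 5.40 by limma-voom. KMF cells also exceeded FAK-WT cells by 2.11 on the log2 scale (SE 0.28, limma adjusted p = 0.00107).

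FAK-R454 cells averaged 0.879 ± 0.110 FPKM of Lamb3 (SD, n = 2), below the limit for testing against FAK KO cells. When all genes were tested with no filter, the log2 difference was 2.06 (SE 0.24, limma adjusted p = 0.00873), and both FAK-R454 samples were above all 3 FAK KO samples. Between FAK-WT and FAK-R454 cells the log2 difference of Lamb3 was 0.49, with a 95% interval from -0.32 to 1.29 (limma adjusted p = 0.389). Without FAK-WT sample 3 the difference was 0.19 (limma adjusted p = 0.558). β-catenin ΔGSK cells, at 0.0688 ± 0.0244 FPKM (SD, n = 3), were below FAK KO cells by 0.48 on the log2 scale with no filter, which did not pass the test (limma adjusted p = 0.0910). The line means of Lamb3 lay on the same side of FAK KO cells as the summed fibroblast and pericyte markers given with Lamb1, but KMF was highest for Lamb3 and stood between FAK KO and FAK-WT for the markers.

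**Figure D1:**
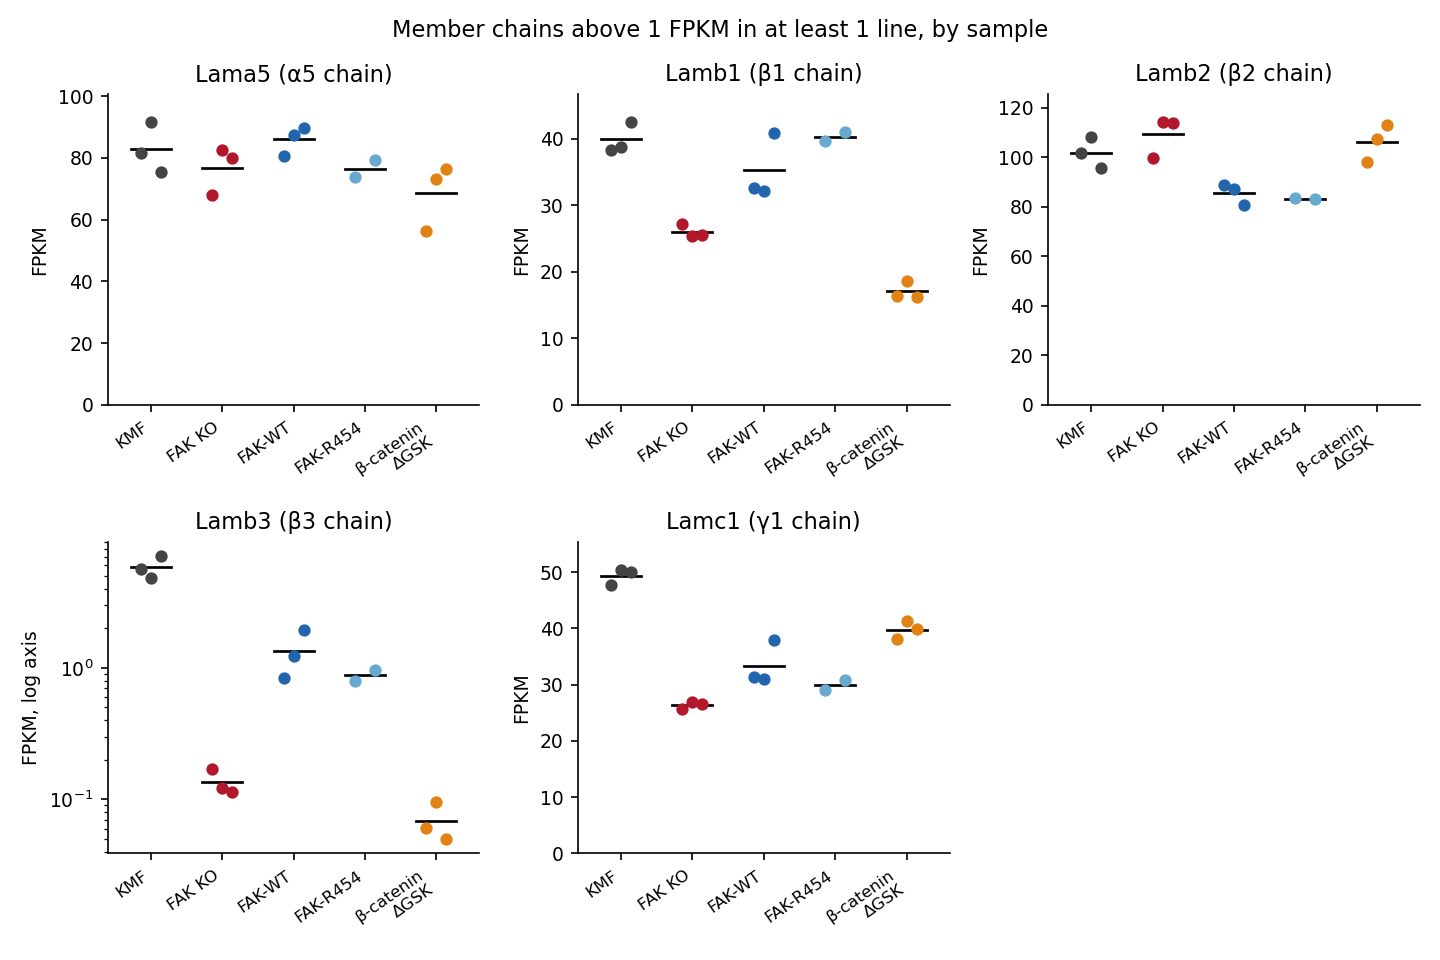
FPKM of the 5 member chains with a mean above 1 FPKM in at least 1 line. Each point is a sample, each bar the mean of its line, and Lamb3 alone is on a log axis. Lamb3 runs from 0.0498 to 7.05 FPKM and Lamb1 from 16.2 to 42.5 FPKM, while Lama5 samples of most lines lie among each other.

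Lamb1, the β1 chain found in most basement membranes, moved in both directions. The gene lies at chr12:31265234-31329644 on the plus strand. KMF samples had 38.4, 38.8 and 42.5 FPKM and FAK KO samples 27.1, 25.4 and 25.5 FPKM. FAK-WT samples had 32.6, 32.2 and 40.9 FPKM and FAK-R454 samples 39.6 and 41.0 FPKM. β-catenin ΔGSK samples had 16.4, 18.6 and 16.2 FPKM. All samples of KMF, FAK-WT and FAK-R454 were above all FAK KO samples, which in turn were above all β-catenin ΔGSK samples.

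Over FAK KO cells, Lamb1 rose by a log2 difference of 0.61 in KMF (SE 0.07, limma adjusted p = 0.000121), 0.43 in FAK-WT (SE 0.10, limma adjusted p = 0.00999; 0.31 without FAK-WT sample 3) and 0.63 in FAK-R454 cells (SE 0.06, limma adjusted p = 0.000642). In β-catenin ΔGSK cells it fell by 0.61 on the log2 scale (SE 0.08, limma adjusted p = 0.000187). These 4 comparisons share the same 3 FAK KO samples. Among the neighbours in the order of the lines, FAK-R454 and KMF cells did not differ beyond their spread (limma adjusted p = 0.856), nor did KMF and FAK-WT cells (limma adjusted p = 0.175). Without FAK-WT sample 3, however, KMF exceeded FAK-WT cells by 0.30 and Lamb1 was called (limma adjusted p = 0.00952).

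FAK-WT and FAK-R454 cells differed in Lamb1 by -0.20 on the log2 scale, with a 95% interval from -0.47 to 0.07 (limma adjusted p = 0.298). Without FAK-WT sample 3 the value was -0.32 and Lamb1 was called, with FAK-WT below FAK-R454 (limma adjusted p = 0.00131). The summed level of 4 fibroblast and pericyte markers lay on the same side of FAK KO cells as Lamb1 and mean Lamb3 in each line: it was 4.12 to 4.78 FPKM in FAK KO, 10.8 to 12.5 in KMF, 19.05 to 19.99 in FAK-WT, 17.96 to 20.02 in FAK-R454 and 0.990 to 1.07 in β-catenin ΔGSK samples. Of these markers, 2 passed 1 FPKM in a line, Col1a1 and Pdgfra, while the line means of Col1a2 and Pdgfrb were at most 0.0119 and 0.0427 FPKM. Summed leukocyte markers (1 of 4 above 1 FPKM, Cd68) were 2.79 to 3.15 FPKM in FAK KO, 2.55 to 3.62 in KMF, 6.60 to 12.3 in FAK-WT, 4.24 to 4.34 in FAK-R454 and 1.05 to 1.86 in β-catenin ΔGSK samples, so that KMF overlapped with FAK KO. Summed endothelial markers, which were mostly Tek, were 17.8 to 19.2 FPKM in FAK KO, 29.6 to 29.95 in KMF, 17.5 to 18.6 in FAK-WT, 17.1 to 17.8 in FAK-R454 and 6.55 to 7.42 in β-catenin ΔGSK samples, and so were no higher in FAK-WT or FAK-R454 than in FAK KO cells. The part of these genes in the Lamb1 and Lamb3 results was not tested, and in bulk RNA fewer cells of a type and less RNA per cell cannot be told apart.

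Lamb2, the β2 chain known from the kidney glomerulus and the neuromuscular junction, had the highest mean FPKM of the laminin chains in every line except FAK-WT, where Lama5 averaged 86.0 ± 4.68 FPKM and Lamb2 85.6 ± 4.27 FPKM (SD, n = 3 each). It lies at chr9:108479862-108490530 on the plus strand. KMF samples had 102, 108 and 95.6 FPKM, FAK KO samples 99.7, 114 and 114 FPKM, and β-catenin ΔGSK samples 98.0, 107 and 113 FPKM. FAK-WT samples had 88.8, 87.1 and 80.7 FPKM and FAK-R454 samples 83.5 and 83.2 FPKM. The 5 samples with re-expressed FAK were thus below all 9 others.

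Lamb2 fell by 0.35 on the log2 scale in FAK-WT over FAK KO cells (SE 0.08, limma adjusted p = 0.00798) and by 0.39 in FAK-R454 over FAK KO cells (SE 0.08, limma adjusted p = 0.0106). The FAK-R454 result was not called when either of its 2 samples was left out (limma adjusted p = 0.109 and 0.0969), where the lone sample is assumed to vary like the other line. β-catenin ΔGSK and FAK KO cells differed by -0.04 with a 95% interval from -0.22 to 0.14 (limma adjusted p = 0.667), and by 0.06 with median-of-ratios scaling. KMF and FAK KO cells, which are the parental line and its clone, differed by -0.10 with a 95% interval from -0.28 to 0.08 (limma adjusted p = 0.300), and by -0.17 to -0.05 over the alternatives, none of which called it. KMF cells exceeded FAK-WT cells by 0.25 (SE 0.07, limma adjusted p = 0.0218) and FAK-R454 cells by 0.29 (SE 0.07, limma adjusted p = 0.0136). The first was not called with chromosome centring (0.09, limma adjusted p = 0.371) or without KMF sample 1, KMF sample 2 or FAK-WT sample 2 (limma adjusted p from 0.0612 to 0.0781), and the second was not called without either FAK-R454 sample (limma adjusted p = 0.0956 and 0.0957).

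Lamc1, the γ1 chain shared by most laminin trimers, was lowest in FAK KO cells. The gene lies at chr1:153218922-153332786 on the minus strand. KMF samples had 47.6, 50.3 and 50.0 FPKM and FAK KO samples 25.6, 27.0 and 26.6 FPKM. FAK-WT samples had 31.3, 30.9 and 37.9 FPKM, FAK-R454 samples 29.0 and 30.9 FPKM, and β-catenin ΔGSK samples 38.1, 41.4 and 39.8 FPKM. No sample of another line was as low as the FAK KO samples.

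The log2 difference of Lamc1 over FAK KO cells was 0.90 in KMF (SE 0.06, limma adjusted p = 6.78e-06), 0.59 in β-catenin ΔGSK (SE 0.06, limma adjusted p = 7.68e-05) and 0.33 in FAK-WT cells (SE 0.09, limma adjusted p = 0.0170). The FAK-WT result was not called without FAK KO sample 1 or sample 3 (limma adjusted p = 0.0547 and 0.0567), and without FAK-WT sample 3 it was 0.24 (limma adjusted p = 0.0186). In FAK-R454 cells the difference was 0.18 with a 95% interval from 0.03 to 0.33 and did not pass the test (limma adjusted p = 0.0898), though without FAK KO sample 2 it did, at 0.20 (limma adjusted p = 0.0470). In the order of the lines, KMF exceeded β-catenin ΔGSK by 0.31 (SE 0.06, limma adjusted p = 0.00308), but the sign turned with chromosome centring (-0.05, limma adjusted p = 0.564). β-catenin ΔGSK exceeded FAK-WT cells by 0.26 (SE 0.09, limma adjusted p = 0.0397), a call that was lost with no filter (limma adjusted p = 0.0626), with no trend in the fit, and without FAK-WT sample 1 or 2 or β-catenin ΔGSK sample 2 or 3 (limma adjusted p from 0.0878 to 0.146). FAK-WT and FAK-R454 cells differed by 0.15, with a 95% interval from -0.09 to 0.39 (limma adjusted p = 0.372), and by 0.06 without FAK-WT sample 3 (limma adjusted p = 0.386).

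Lama5, the α5 chain of most adult epithelial basement membranes, made up between 99.1% and 99.7% of the summed α chain FPKM in the 14 samples. It lies at chr2:180176373-180225859 on the minus strand. KMF samples had 81.5, 91.7 and 75.3 FPKM, FAK KO samples 68.0, 82.5 and 79.8 FPKM, and FAK-WT samples 80.8, 87.5 and 89.7 FPKM. FAK-R454 samples had 73.8 and 79.4 FPKM and β-catenin ΔGSK samples 56.3, 73.3 and 76.6 FPKM. The samples of FAK KO cells overlapped with those of each other line.

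Against FAK KO cells the log2 difference of Lama5 was 0.11 in KMF (95% interval from -0.11 to 0.33), 0.17 in FAK-WT (95% interval from -0.03 to 0.36), 0.00 in FAK-R454 (95% interval from -0.21 to 0.21, and 0.02 with median-of-ratios scaling) and -0.17 in β-catenin ΔGSK cells (95% interval from -0.45 to 0.11). The limma adjusted p ran from 0.144 to 1.00 over these 4, so changes up to the interval ends remain possible. With 1 sample left out these values ran from 0.03 to 0.18 in KMF, 0.08 to 0.22 in FAK-WT, -0.09 to 0.05 in FAK-R454 and -0.25 to -0.03 in β-catenin ΔGSK cells, each lowest without FAK KO sample 1, and none was called. When the genes of each chromosome were centred on their median, the FAK-WT difference was 0.34 and was called (limma adjusted p = 0.0230). A block by sample number called Lama5 lower in β-catenin ΔGSK over FAK KO cells (limma adjusted p = 0.0247). Compared with β-catenin ΔGSK cells directly, FAK-WT cells had more Lama5, by 0.34 on the log2 scale (SE 0.11, limma adjusted p = 0.0381). This call was lost with no filter (limma adjusted p = 0.0710), with median-of-ratios scaling (0.0600), with no trend in the fit (0.0640) and without FAK-WT sample 2 or 3 (0.0978 and 0.0882). No neighbours in the order of the 5 lines differed beyond their spread.

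The other 4 α chains were below 1 FPKM in all samples and so stayed outside the filtered test. Lama1, an α chain of early embryos, had 0 fragments in each of the 14 libraries, and 3 fragments would have been 0.00893 to 0.0124 FPKM depending on the library. Lama2, the α chain of muscle and peripheral nerve, had 0 to 3 fragments and at most 0.0104 FPKM. Lama3, the partner of β3 in epidermal laminin, had 0.0699 to 0.269 FPKM from 22 to 73 fragments. Lama4, an α chain of vessels and mesenchyme, had 0.103 to 0.432 FPKM from 20 to 82 fragments. Both Lama2 and Lama3 share exon bases with another annotated gene (631 and 197 bases), and whether counting used strand is not given in the sources used here, so their low values are uncertain.

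Within these low ranges, Lama3 was highest in the 3 β-catenin ΔGSK samples, at 0.234 ± 0.0359 FPKM (SD, n = 3), above each sample of the other lines. It was lowest in FAK-WT cells, at 0.0792 ± 0.0140 FPKM (SD, n = 3), where Lamb3 had risen. With no filter, neither difference of Lama3 from FAK KO cells passed: it was 0.41 in β-catenin ΔGSK (limma adjusted p = 0.134) and -0.49 in FAK-WT cells (limma adjusted p = 0.0819). Directly against β-catenin ΔGSK cells, Lama3 was lower in FAK-WT (-0.89, limma adjusted p = 0.00886) and FAK-R454 cells (-0.75, limma adjusted p = 0.0453) with no filter. Mean Lama4 was highest in β-catenin ΔGSK, at 0.311 ± 0.0653 FPKM, and lowest in KMF cells, at 0.121 ± 0.0197 FPKM (SD, n = 3 each). With no filter it differed from FAK KO cells by 0.63 in β-catenin ΔGSK (limma adjusted p = 0.0614) and by -0.26 in KMF cells (limma adjusted p = 0.352), and neither passed. KMF cells had less Lama4 than β-catenin ΔGSK (-0.88, limma adjusted p = 0.0123) and FAK-R454 cells (-0.78, limma adjusted p = 0.0354) with no filter, at levels below 1 FPKM in every line. The γ3 chain Lamc3, no member, had at most 0.145 FPKM, from 0 to 27 fragments. Both FAK-R454 samples of Lamc3 were above all other samples.

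**Figure D2:**
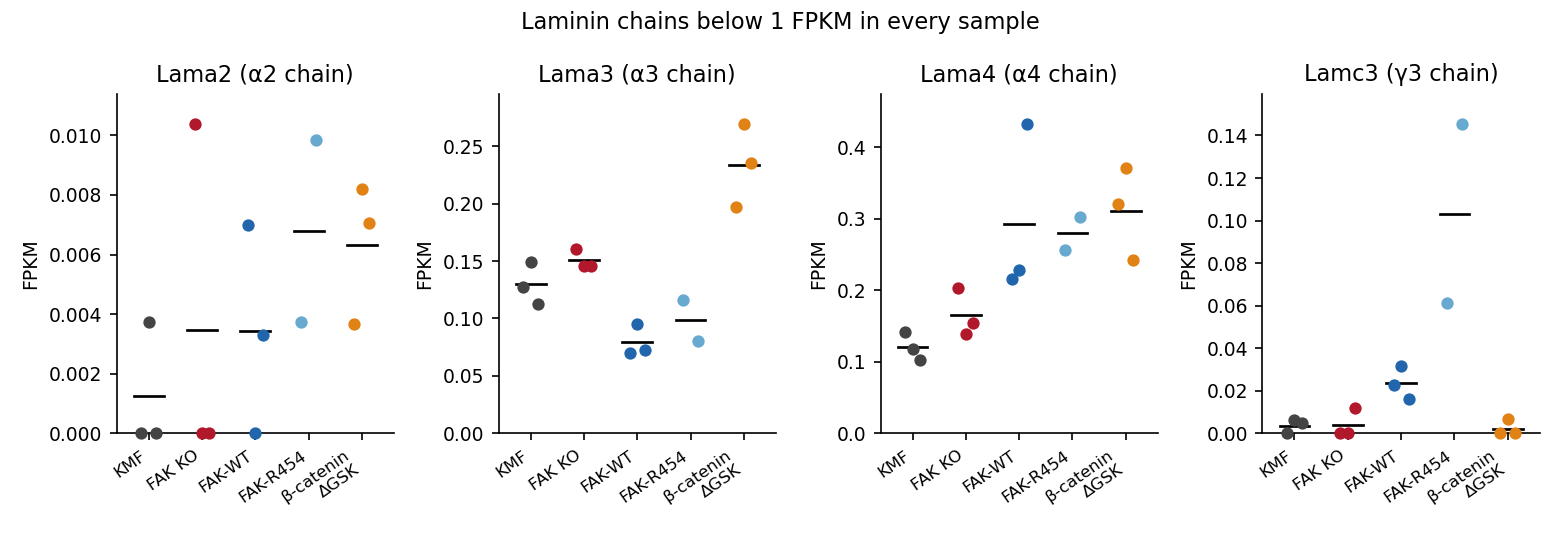
FPKM of 4 laminin chains below 1 FPKM in every sample, with a point for each sample and a bar for the mean of its line. Lama1, at 0 in all 14 samples, is not drawn. Lama3 is highest in β-catenin ΔGSK cells, at a mean of 0.234 FPKM, and Lamc3 in FAK-R454 cells, at a mean of 0.103 FPKM.

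FPKM is scaled by gene length, so chains can be compared with each other within a sample. Lamb2 exceeded Lamb1 by a ratio of 6.25 ± 0.651 in β-catenin ΔGSK cells and 4.21 ± 0.463 in FAK KO cells (SD, n = 3 each). The ratio was 2.56 ± 0.282 in KMF, 2.47 ± 0.430 in FAK-WT (SD, n = 3 each) and 2.07 ± 0.0581 in FAK-R454 cells (SD, n = 2). The samples of FAK KO cells overlapped with no other line in this ratio. Lamb1 thus made up 19.3% of the summed β chain FPKM in FAK KO, 13.9% in β-catenin ΔGSK, 27.1% in KMF, 28.8% in FAK-WT and 32.4% in FAK-R454 cells. The ratios and shares are descriptions of the samples and were not tested.

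**Figure D3:**
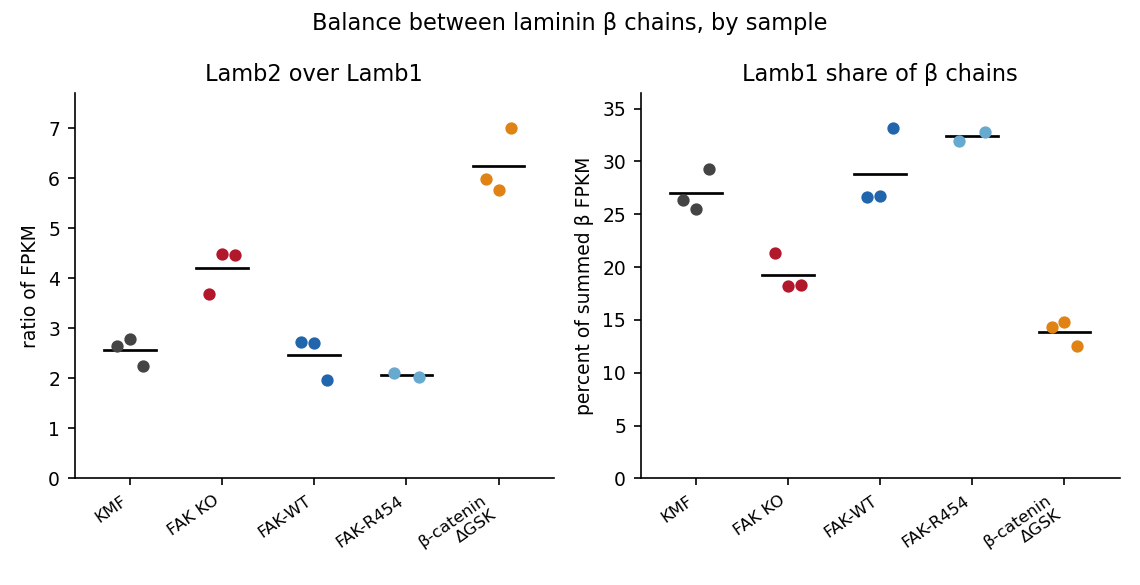
Ratio of Lamb2 to Lamb1 FPKM, and Lamb1 as a percentage of the summed FPKM of the 3 β chains. Points are samples and bars are line means. β-catenin ΔGSK cells have the highest mean ratio, 6.25, and the lowest mean share of Lamb1, 13.9%.

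Put together by comparison, FAK-WT over FAK KO cells had 4 of 5 tested members called, Lamb3, Lamb1 and Lamc1 higher and Lamb2 lower, where 40.8% of all genes tested were called. Lamb3 alone also passed a log2 difference of 1, as did 4.62% of all genes. The median over the 5 tested members was 0.33 on the log2 scale and -0.08 over all genes. FAK-R454 over FAK KO cells had 2 of 4 called, Lamb1 higher and Lamb2 lower, with 19.7% of all genes called, and medians of 0.09 and -0.03. β-catenin ΔGSK over FAK KO cells had 2 of 4 called, Lamc1 higher and Lamb1 lower, with 58.1% of all genes called, so the share of members was near that of all genes. The medians there were -0.11 and -0.09.

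KMF over FAK KO cells had 3 of 5 called, Lamb3, Lamb1 and Lamc1, all higher, with 51.8% of all genes called. Medians were 0.61 over the tested members and -0.05 over all genes, and Lamb3 was again the single member past a log2 difference of 1, as were 8.01% of all genes. In FAK-WT over FAK-R454 cells 0 of 5 members were called by limma, where 7.82% of all genes were. At an unadjusted p under 0.05 this comparison had 1 member, Lama5, and limma-voom on fragments called 0. Its medians were 0.15 over the members and -0.05 over all genes. Without FAK-WT sample 3, Lamb1 was called in it, at -0.32 (limma adjusted p = 0.00131). A block by sample number called Lama5 and Lamb1. That block also gives FAK-WT sample 3 no weight here, so it is not a separate check of Lamb1. A member that passed the FPKM filter only through the line where it is high, as Lamb3 did, had to differ, so these counts, medians and tests describe the tested members and not all 9.

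**Figure D4:**
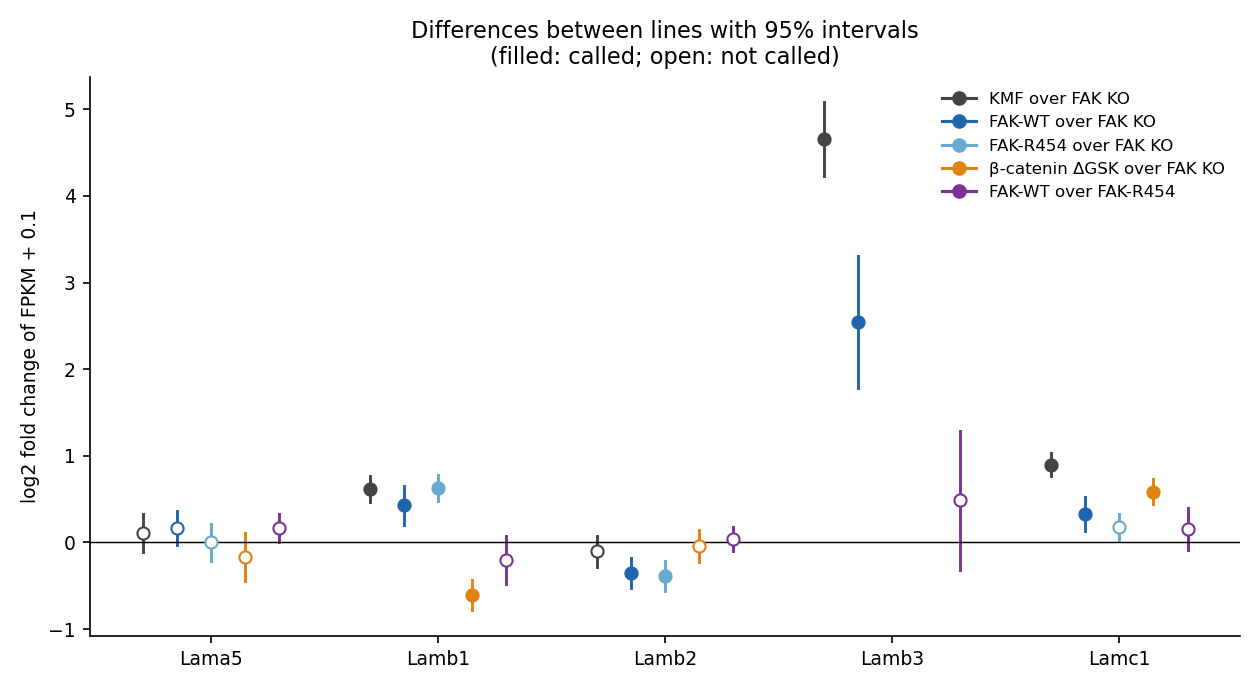
Log2 difference of 5 laminin chains in 5 comparisons, with 95% intervals from limma. Filled points were called and open points were not. Lamb3 stands out at 4.65 in KMF over FAK KO cells, has no point in 2 comparisons where its mean stayed below 1 FPKM in both lines, and Lamb1 lies above 0 for KMF, FAK-WT and FAK-R454 and below 0 for β-catenin ΔGSK cells.

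The remaining 5 pairs of lines compared cells that do not share FAK KO samples as a reference. KMF over FAK-WT and KMF over FAK-R454 cells each had 3 of 5 members called, Lamb3, Lamc1 and Lamb2, all higher, with 41.6% and 43.6% of all genes called. Without FAK-WT sample 3, Lamb1 was called in the first as well, at 0.30 (limma adjusted p = 0.00952). Without KMF sample 3, Lama5 was called in the second as well, at 0.18 (limma adjusted p = 0.0369). KMF over β-catenin ΔGSK cells had 3 of 5 called, with 56.9% of all genes called. Lamb3 was higher in KMF by 5.13 on the log2 scale (SE 0.19, limma adjusted p = 1.24e-07, and 5.35e-06 with no filter). Lamb1 was higher by 1.22 (SE 0.08, limma adjusted p = 2.78e-06) and Lamc1 by 0.31. FAK-WT over β-catenin ΔGSK cells had 5 of 5 called, with 50.8% of all genes called, Lamb3, Lamb1 and Lama5 higher and Lamb2 and Lamc1 lower, of which Lama5 and Lamc1 were not called with no filter. FAK-R454 over β-catenin ΔGSK cells had 3 of 4 called, with 49.0% of all genes called, Lamb1 higher by 1.24 (SE 0.08, limma adjusted p = 1.25e-05) and Lamb2 and Lamc1 lower. Lamb2 was not called there without either FAK-R454 sample (limma adjusted p = 0.0628 and 0.0653).

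Other genes of the basement membrane were taken from a list of 17 that bind or accompany laminin. Nid1 and Nid2, the nidogens that link laminin to collagen IV, had line means of at most 0.0253 and 0.0166 FPKM. In β-catenin ΔGSK over FAK KO cells, 13 were tested, 2 rose and 7 fell, with a median log2 difference of -0.29, where 58.1% of all genes tested were called. Col15a1, a basement membrane collagen, fell by 4.95 on the log2 scale (SE 0.18, limma adjusted p = 1.30e-07), from 195 ± 9.72 to 6.397 ± 1.82 FPKM (SD, n = 3 each). Egflam, which encodes the dystroglycan ligand pikachurin, rose by a log2 difference of 3.33 (SE 0.28, limma adjusted p = 1.69e-05), from 0.0672 ± 0.0195 to 1.63 ± 0.538 FPKM (SD, n = 3 each). It was tested only through the β-catenin ΔGSK line, where it is above 1 FPKM, and so had to differ to be tested at all.

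Of 12 tested in each of the other comparisons with FAK KO cells, 3 rose and 2 fell in FAK-WT, 5 rose and 1 fell in FAK-R454, and 4 rose and 2 fell in KMF cells. The shares of all genes called were 40.8%, 19.7% and 51.8%, and the lists' median log2 differences 0.19, 0.23 and 0.04. Fbln1, a fibulin of the matrix, rose most in KMF cells, by a log2 difference of 3.26 (SE 0.08, limma adjusted p = 9.10e-08). Col18a1, whose collagen gives rise to endostatin, was higher in FAK-R454 by 1.42 (SE 0.09, limma adjusted p = 9.90e-05) and in FAK-WT cells by 0.75 (SE 0.10, limma adjusted p = 0.00104). It was lower in KMF, at -1.41, and in β-catenin ΔGSK cells, at -1.96.

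Laminin receptors were tested for 10 of 12 listed genes. Itga7, the laminin-binding integrin α7 chain best known from muscle, fell by 4.01 on the log2 scale in β-catenin ΔGSK over FAK KO cells (SE 0.16, limma adjusted p = 2.22e-07), from 4.74 ± 0.608 to 0.200 ± 0.0124 FPKM (SD, n = 3 each). Itgb4, the hemidesmosome integrin β4 chain, fell by 1.06 there (SE 0.10, limma adjusted p = 3.76e-05) and was higher in FAK-WT over FAK KO cells, by 0.49 (SE 0.09, limma adjusted p = 0.00365). In all, 7 receptors fell and 1 rose in β-catenin ΔGSK cells, 2 rose and 3 fell in FAK-WT, 2 rose and 3 fell in FAK-R454, and 3 rose and 1 fell in KMF cells. The shares of all genes called were 58.1%, 40.8%, 19.7% and 51.8% in that order. The medians of the 10 were -0.20, -0.01, 0.07 and 0.13 on the log2 scale.

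The dystroglycan receptor needs a chain of sugar-adding enzymes before it can bind laminin, and 9 of 13 listed symbols were in the table. Of these 9, 3 fell and 0 rose in FAK-WT, 1 fell and 0 rose in FAK-R454, 3 fell and 1 rose in β-catenin ΔGSK, and 3 fell and 1 rose in KMF cells, each over FAK KO cells. In that order, 40.8%, 19.7%, 58.1% and 51.8% of all genes were called. Their medians were -0.09, -0.03, -0.08 and 0.04 on the log2 scale. Pomgnt2, an early enzyme of that chain, fell by 1.20 on the log2 scale in KMF cells (SE 0.16, limma adjusted p = 0.000367). Bmp1, a protease that trims laminin chains and procollagens, fell by 1.22 in β-catenin ΔGSK cells (SE 0.09, limma adjusted p = 9.59e-06) and was higher by 0.40 in FAK-R454 cells (SE 0.07, limma adjusted p = 0.00603). The other protease tested, Mmp14, went the same way in both lines, at -0.47 and 0.56.

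**Figure D5:**
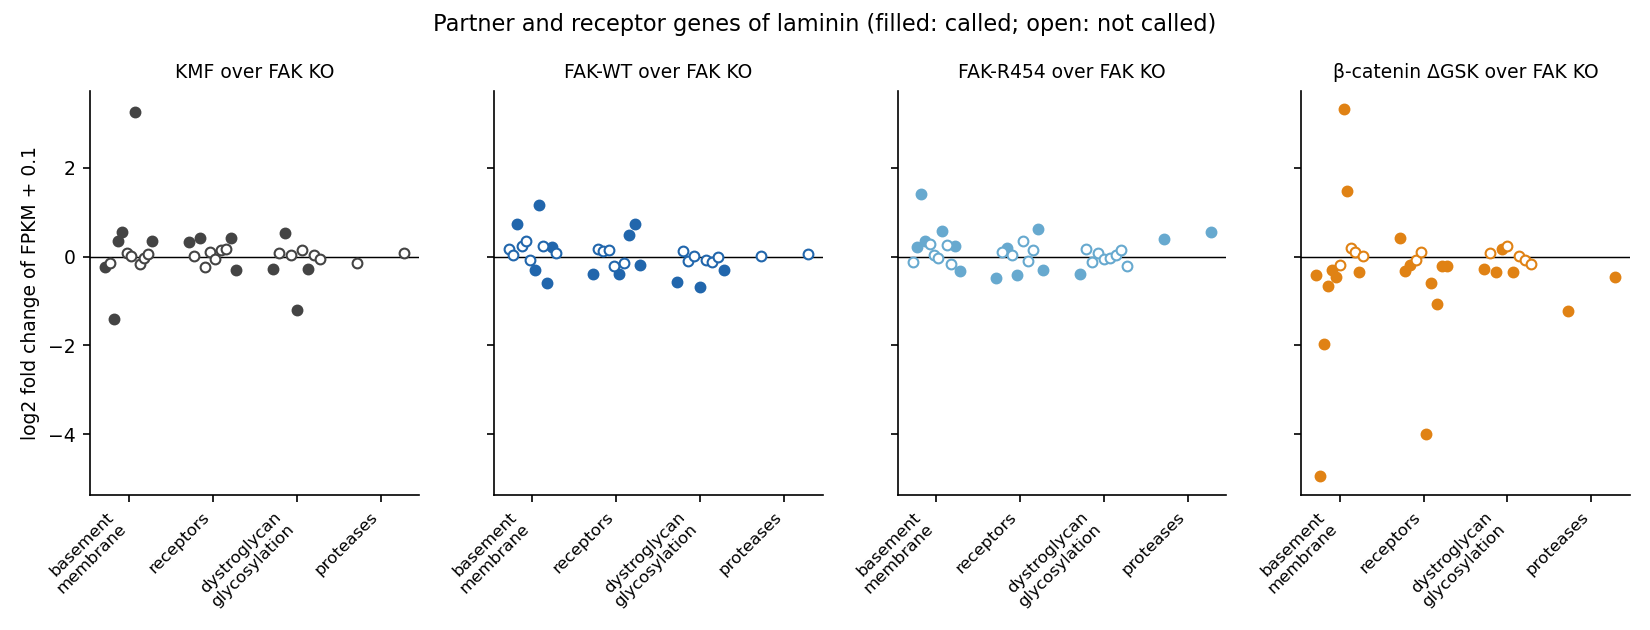
Log2 difference over FAK KO cells for basement membrane partners, laminin receptors, enzymes that glycosylate dystroglycan and processing proteases. Each point is a gene tested in that comparison, filled if called. The points furthest below 0 are Col15a1 at -4.95 and Itga7 at -4.01, both in β-catenin ΔGSK cells.

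Genes with the most similar pattern were found by Pearson's r of log2(FPKM + 0.1) over the 14 samples, among 12255 genes above 1 FPKM in at least 1 line. For Lamb1 these were Fbln2, a matrix fibulin (r = 0.991), and Adcy7, an adenylyl cyclase (r = 0.983). For Lamb3 they were Fnip2 (r = 0.989) and Kctd15 (r = 0.987). Nfkb1, an NF-κB subunit (r = 0.977), and Eif4ebp1, a repressor of translation initiation (r = 0.974), were most similar to Lamc1. Lamb2 was followed less closely, by Ppm1l (r = 0.923) and Ube3b (r = 0.920). The points share libraries and lines, so these values describe the 14 samples and carry no test.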

How the data were processed

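Poly(A)-selected RNA of 14 tumorsphere samples was sequenced as paired ends. The authors deposited FPKM per gene. The study's methods name TopHat2, and the submitters' processing notes name CASAVA 1.8, STAR 2.5, DESeq2 and mm10. The counter, its annotation and strand setting are not given in the sources used here. Fragments recovered from FPKM and gene length were whole (tolerance 0.01) in 100% of values. They number 25390558 to 35289859 per library, and PCR copies were not separable, so floors of 3 fragments cover counting error only.

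Samples were grouped by their labels. FPKM was compared between 2 lines at a time with limma 3.58.1 (R 4.3.3, trend) on log2(FPKM + 0.1), over genes with a mean above 1 FPKM in at least 1 line. The count test of the study was not used, as the unit is FPKM. Alternatives were another pseudocount, filter, scaling, fit or unit, centring by chromosome, a replicate block and leaving out each sample. The fit was tested on simulated data, where planted changes were recovered and the share of false calls was somewhat above the nominal level. The simulation had the sample numbers of FAK-WT and FAK KO, a single large size of change and the same spread setting for every gene. Comparisons with FAK-R454, outlying libraries and smaller changes were not simulated, so it does not check those calls.

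Named genes are the 9 members, Lamc3, Ptk2, Ctnnb1, up to 4 genes per list group with the largest called log2 difference of at least 1 and the 2 most similar genes per called member; others in the text were chosen after their values were seen. Some results within this rule are not reported here. Members and lists were chosen with earlier results of these data known. Sequences are from RefSeq (GRCm38.p6). Gene coordinates are those of the table, which match GENCODE M21 of GRCm38 in start and end for 72.3% of shared genes.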

Additional observations from a re-analysis of the deposited data

How the results depend on the processing

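Of 205 log2 differences of single tested chains in the 4 comparisons with FAK KO and that of FAK-WT with FAK-R454, under alternatives with all samples, 195 kept direction and side of the threshold, 4 became called and 6 changed sign, all of chains that were not called. Of 129 with a sample left out, 119 kept both, 4 lost and 2 gained a call and 4 changed sign. Lama5 in FAK-R454 over FAK KO cells, at 0.00, was 0.0222 with median-of-ratios scaling, 0.000695 with limma-voom, 0.0913 with chromosome centring, 0.0306 with the replicate block and -0.0850 to 0.0544 with a sample left out. Lamb2 in β-catenin ΔGSK over FAK KO cells, at -0.04, was 0.0592 with median-of-ratios scaling, 0.0287 with chromosome centring and -0.107 to 0.0136 with a sample left out. The cause was not tested.

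For the other 5 pairs, alternatives added after seeing the data gave 215 such values, of which 202 kept both, 7 lost and 3 gained a call and 3 changed sign, and 135 with a sample left out, of which 115 kept both, 13 lost and 3 gained a call and 4 changed sign. Lamc1 in KMF over β-catenin ΔGSK cells, called at 0.31, was -0.0524 with chromosome centring and not called. Lamb1 in KMF over FAK-R454 cells, at -0.02, was 0.00276 with median-of-ratios scaling, 0.107 with chromosome centring and -0.0628 to 0.0116 with a sample left out, and Lama5 in KMF over FAK-WT cells, at -0.06, ran from -0.133 to 0.00913 with a sample left out. The replicate block lost Lamc1 in FAK-WT over β-catenin ΔGSK (limma adjusted p = 0.0506). It added Lama5 in FAK-R454 over β-catenin ΔGSK and KMF over FAK-R454 cells (limma adjusted p = 0.0387 and 0.00539). In comparisons with FAK-R454, which has no sample 3, the block gives sample 3 of the other line no weight. Its Lama5 value in KMF over FAK-R454 cells, 0.177, was thus the value without KMF sample 3.

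The number of members called with a sample left out ran from 3 to 4 in FAK-WT over FAK KO, 1 to 3 in FAK-R454 over FAK KO, 0 to 1 in FAK-WT over FAK-R454 and 14 to 18 over the 5 other pairs together (17 with all samples), and stayed at 2 in β-catenin ΔGSK and 3 in KMF over FAK KO cells. At most 5 of the 9 members were high enough to test, and FAK-R454 has 2 samples.

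Correlations of the deviations of same-numbered samples ran from -0.25 to 0.45 and in no comparison of 3 pairs all exceeded 0.1, so the numbers were not taken to pair the samples. In FAK-WT over FAK-R454 cells the replicate block called 2 members, Lama5 and Lamb1, in place of 0, and by its construction gives FAK-WT sample 3 no weight. In β-catenin ΔGSK over FAK KO cells it added Lama5 (limma adjusted p = 0.0247). There 4 of 6 samples correlated best with their own number, as did 4 of 6 in KMF over FAK-WT cells. Other block changes are above.

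Over all genes, calls in FAK-R454 over FAK KO were 2325, with 1315 under no filter, 548 and 609 without each FAK-R454 sample, 1178 without FAK KO sample 3 and 4390 without FAK KO sample 2. In FAK-WT over FAK-R454 they were 921, with 491 under no filter, 528 with chromosome centring, 3393 with the block, 334, 157 and 3312 without FAK-WT samples 1, 2 and 3, and 7 and 8 without each FAK-R454 sample. Without FAK KO sample 3 or FAK-WT sample 2, FAK-WT over FAK KO cells had 2727 or 3113 calls in place of 4837. Median-of-ratios scaling moved the median of all genes in β-catenin ΔGSK over FAK KO by 0.10 on the log2 scale, and split the calls into 3615 higher and 3202 lower in place of 2828 and 4100. It gave 2343 and 2136 in place of 1851 and 2986 in FAK-WT over FAK KO, 525 and 403 in place of 398 and 523 in FAK-WT over FAK-R454, and 2680 and 3119 in place of 3306 and 2534 in FAK-R454 over β-catenin ΔGSK cells. Chromosome centring gave splits of 3512 and 3167, 1935 and 1632, 313 and 215, and 2619 and 3114 for these 4. Under median-of-ratios scaling the larger direction also turned in 5 of the other 6 comparisons (KMF over FAK KO: 2749 and 3412 became 3199 and 2915). Without a FAK-R454 sample, calls in KMF over FAK-R454 fell from 5189 to 2603 or 2789, and in FAK-R454 over β-catenin ΔGSK from 5840 to 3308 or 3328. Calls past a log2 difference of 1 were 273 with pseudocount 1 and 249 with means above 5 FPKM in place of 547 for FAK-WT over FAK KO, and 566 and 459 in place of 953 for KMF over FAK KO.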
